A study of Mus musculus with 6 samples.

Results

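Tendon and cartilage matrix genes were examined in whole tibialis anterior (TA) muscle by RNA-sequencing. The set was a list of 8 symbols (Tnmd, Comp, Thbs4, Scx, Mkx, Cilp, Cilp2 and Acan) chosen by their levels in single libraries of these data, in which control 1 and Yap-shRNA 3 stood apart from the other 4. Of these, 6 had a row among the 13226 genes of the count table, and Mkx and Acan had none there and were not analysed here. All 6 passed the filter on low counts. Because the values of single libraries chose the members, those values and every ratio between libraries are given as a description, without a test.

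The muscles came from male C57BL/6 mice aged 8 weeks, 7 days after injection into the muscle of AAV6:Yap-shRNA in one leg and of a control vector in the other, with 3 muscles in each of 2 groups. The short hairpin RNA (shRNA) against Yap mRNA was delivered by AAV6, an adeno-associated virus that enters muscle fibres, and all 6 muscles had received a vector. In their titles the controls are an empty vector and in their vector field AAV6:LacZ-shRNA, so they are called control here. Muscles were paired within animals, but the sample numbers are not stated to be animals. The p-values below therefore measure only the spread between these samples. The whole muscle was extracted, and how much tendon or fascia came with each muscle is not given in the sources used here.

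Tendon is built by tenocytes, fibroblast-like cells that lie between parallel bundles of type I collagen. The transcription factor scleraxis marks them, and they make tenomodulin at their surface and secrete small proteoglycans and pentameric thrombospondins that bind collagen. Some of these proteins are shared with cartilage, whose matrix is defined by type II collagen and aggrecan. The TA muscle holds an internal tendon and ends in an external one, and its fibres make a specialised matrix where they meet tendon.

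Total counts per library were 11987167 to 12710393. The label of muscle held, since the 6 muscle fibre genes (Acta1, Myh4, Ckm, Myh1, Tnnt3 and Pvalb) summed to 117000 to 141200 CPM (counts relative to library size, scaled by edgeR's TMM method) in every library. Yap1, the targeted gene, had 915, 781 and 833 counts in control 1, 2 and 3 and 381, 311 and 495 in Yap-shRNA 1, 2 and 3. Every Yap-shRNA muscle had fewer than the lowest control, and the groups did not overlap, in either direction, for 697 genes (5.27%). The log2 fold change of Yap1 was -1.10 (standard error, SE, 0.16), for which the quasi-likelihood test of edgeR gave an adjusted p of 0.436. No gene passed an adjusted p of 0.05 by that test (0% of genes), 232 had an unadjusted p under 0.05 (1.75%), and DESeq2 called 5 genes, Yap1 among them.

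The promoters of 4 members, Tnmd, Thbs4, Cilp and Cilp2, are shown because these genes had their highest levels in the same libraries. Comp and Scx had no entry in the table of promoters, so 4 of 6 members matched. They are taken from RefSeq on GRCm38.p6 and run from 250 bases before to 50 bases after the annotated start, 5′ to 3′ on the strand of the gene. Capitals mark CANNTG, the E-box letters that basic helix-loop-helix factors such as scleraxis can bind, and CATTCC, the letters that the TEAD partners of Yap can bind. Both strands were searched, and CANNTG reads as CANNTG on the other strand.
Tnmd: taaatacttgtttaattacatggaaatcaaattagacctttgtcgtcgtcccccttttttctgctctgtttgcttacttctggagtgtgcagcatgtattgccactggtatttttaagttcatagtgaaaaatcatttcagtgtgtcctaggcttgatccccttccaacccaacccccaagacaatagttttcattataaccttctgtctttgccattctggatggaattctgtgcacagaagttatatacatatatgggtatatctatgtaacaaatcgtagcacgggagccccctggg
Thbs4: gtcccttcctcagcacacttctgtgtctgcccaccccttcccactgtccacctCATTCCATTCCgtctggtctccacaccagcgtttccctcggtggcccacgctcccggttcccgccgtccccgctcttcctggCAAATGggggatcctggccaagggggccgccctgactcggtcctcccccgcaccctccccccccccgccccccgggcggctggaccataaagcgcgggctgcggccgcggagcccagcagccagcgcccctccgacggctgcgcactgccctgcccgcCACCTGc
Cilp: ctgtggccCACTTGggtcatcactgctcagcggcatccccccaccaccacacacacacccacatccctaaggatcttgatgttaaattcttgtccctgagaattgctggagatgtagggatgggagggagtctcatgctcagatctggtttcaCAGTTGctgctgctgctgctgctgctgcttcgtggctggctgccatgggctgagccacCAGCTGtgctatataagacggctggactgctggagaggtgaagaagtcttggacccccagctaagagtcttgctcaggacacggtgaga
Cilp2: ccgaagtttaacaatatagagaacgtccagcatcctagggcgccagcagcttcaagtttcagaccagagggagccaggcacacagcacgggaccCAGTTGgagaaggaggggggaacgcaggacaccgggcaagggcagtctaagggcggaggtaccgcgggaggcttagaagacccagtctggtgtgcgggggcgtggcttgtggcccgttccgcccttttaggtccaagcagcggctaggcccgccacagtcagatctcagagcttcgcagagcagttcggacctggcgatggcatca

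The promoter of Tnmd is at chrX:133850758-133851057 on the plus strand, that of Thbs4 at chr13:92794769-92795068 on the minus strand, that of Cilp at chr9:65264930-65265229 on the plus strand and that of Cilp2 at chr8:69887343-69887642 on the minus strand. For Cilp2 the RefSeq start lies downstream of the GENCODE start at 69887687. Its window is therefore wholly inside the GENCODE gene. CANNTG occurred 3 times in the window of Cilp, 2 times in that of Thbs4 and 1 time in that of Cilp2, and Tnmd had no match. CATTCC occurred 2 times in Thbs4, where the 2 matches share a base, and in none of the others. These letters are common, since 72.3% of 32851 RefSeq promoters of the same length hold CANNTG and 14.7% hold CATTCC on either strand. The windows shared little in base composition, with a GC content of 40.0% in Tnmd, 55.7% in Cilp, 61.3% in Cilp2 and 72.0% in Thbs4.

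Scx encodes scleraxis, the transcription factor that marks tendon progenitors and tenocytes. It had 61, 37 and 47 counts in control 1, 2 and 3 and 32, 41 and 76 in Yap-shRNA 1, 2 and 3. Control 1 and Yap-shRNA 3 were the 2 highest libraries, but the other 4 followed closely and counting error alone spans much of the gap. Control 1 stood at 1.37 times the mean of controls 2 and 3 (exact 95% interval 0.965 to 1.92), and Yap-shRNA 3 at 2.08 times the mean of Yap-shRNA 1 and 2 (1.48 to 2.90). These intervals, and those below, cover counting error only. The groups overlapped, with means of 3.90 ± 0.83 CPM in control and 3.96 ± 1.83 CPM in Yap-shRNA muscles (SD, n = 3). Scx (ENSMUSG00000034161, GRCm38 chromosome 15, 76457452 to 76459458, plus strand) lies inside Bop1 of the minus strand, with 0 shared exon bases. Bop1 had 424 to 503 counts per library, and without a stated strand setting reads from its unspliced RNA cannot be told from reads of Scx.

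Tnmd encodes tenomodulin, a membrane glycoprotein of mature tenocytes, and lies on chromosome X (ENSMUSG00000031250, 133850980 to 133865577, plus strand). It had 197, 47 and 37 counts in the controls and 32, 31 and 211 in the Yap-shRNA muscles. The high library of each group was far above the other 2, and the 2 high libraries were close to each other. Control 1 was 4.40 times the other controls (3.40 to 5.76), Yap-shRNA 3 was 6.64 times the other Yap-shRNA muscles (5.01 to 8.97), and control 1 was 0.911 times Yap-shRNA 3. In bulk muscle, fewer cells that make Tnmd and less Tnmd RNA per cell cannot be told apart, and the same holds for each member below. Which cells made the RNA of the members was not tested. The group means were 7.43 ± 6.86 CPM in control and 7.30 ± 8.25 CPM in Yap-shRNA muscles (SD, n = 3), so the SD was about as large as the mean in both.

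Comp and Thbs4 encode pentameric thrombospondins, secreted glycoproteins that bind collagens in tendon and cartilage. Comp (ENSMUSG00000031849, chromosome 8, 70373558 to 70382066, plus strand) had 242, 27 and 27 counts in the controls and 19, 15 and 247 in the Yap-shRNA muscles. Its gap was among the widest of the members: control 1 was 8.42 times the other controls (6.25 to 11.5) and Yap-shRNA 3 was 14.3 times the other Yap-shRNA muscles (10.1 to 21.3). The lower of the 2 high libraries was still 8.34 times the highest of the other 4. Those 4 libraries held 15 to 27 counts each, so that differences among them were near the limit of counting, with an exact Poisson interval of 8.39 to 24.7 counts for the lowest. Group means were 7.77 ± 9.58 CPM in control and 7.48 ± 10.6 CPM in Yap-shRNA muscles (SD, n = 3).

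Thbs4 (ENSMUSG00000021702, chromosome 13, 92751590 to 92794818, minus strand), which muscle fibres also make, was the most abundant member. It had 3866, 1379 and 1053 counts in the controls and 1503, 1389 and 2760 in the Yap-shRNA muscles. Control 1 was the highest library and Yap-shRNA 3 came next, with the other 4 within 1.46-fold of each other. The gap was narrower than for Comp, at 2.98 times the other controls (2.84 to 3.14) and 1.89 times the other Yap-shRNA muscles (1.80 to 2.00). Group means were 167.5 ± 116.4 CPM in control and 150.9 ± 60.7 CPM in Yap-shRNA muscles (SD, n = 3).

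Cilp and Cilp2 encode cartilage intermediate layer proteins, secreted matrix proteins named after cartilage and also made in tendon. Cilp (ENSMUSG00000042254, chromosome 9, 65265180 to 65280605, plus strand) had 796, 218 and 198 counts in the controls and 283, 177 and 690 in the Yap-shRNA muscles. Control 1 was 3.59 times the other controls (3.19 to 4.06) and Yap-shRNA 3 was 2.95 times the other Yap-shRNA muscles (2.65 to 3.37). Both high libraries cleared every other library, the lower of them by 2.32-fold. Group means were 32.1 ± 25.8 CPM in control and 30.8 ± 21.6 CPM in Yap-shRNA muscles (SD, n = 3).

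Cilp2 (ENSMUSG00000044006, chromosome 8, 69880369 to 69887687, minus strand) had 279, 36 and 19 counts in the controls and 26, 17 and 200 in the Yap-shRNA muscles. Its low libraries were also the most uneven, since the highest of the other 4 was 2.31 times the lowest, at few counts. Control 1 was 9.51 times the other controls (7.12 to 13.0), and Yap-shRNA 3 was 9.15 times the other Yap-shRNA muscles (6.63 to 13.2). Group means were 8.76 ± 11.2 CPM in control and 6.48 ± 8.21 CPM in Yap-shRNA muscles (SD, n = 3). How reads shared by related genes, such as Cilp with Cilp2 or Comp with Thbs4, were counted is not given in the sources used here.

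**Figure D1:**
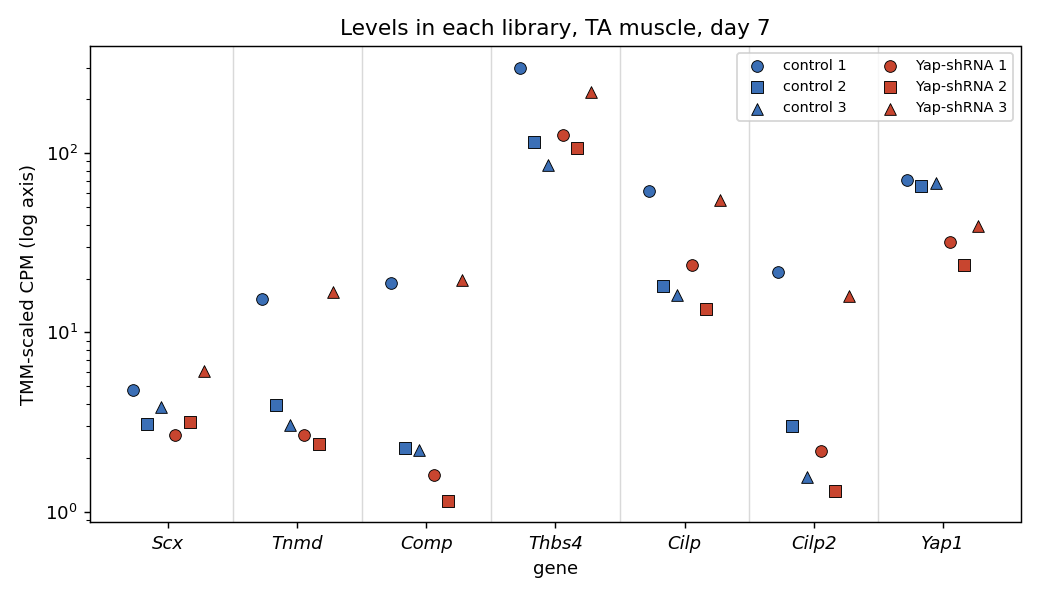
TMM-scaled CPM (log axis) of each member and of Yap1 in each of the 6 libraries, blue for control and red for Yap-shRNA, with the marker shape giving the sample number. Control 1 (blue circle) and Yap-shRNA 3 (red triangle) are the 2 highest libraries for all 6 members, from a narrow gap in Scx to more than 8-fold in Comp, whereas Yap1 separates by group.

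Control 1 and Yap-shRNA 3 were the 2 highest libraries for 6 of 6 members, against 11.3% of all 13226 genes (1490 genes), and the 2 lowest for none, against 10.9%. Both were at least 2-fold above the mean of the other 2 libraries of their group for 4 members, Tnmd, Comp, Cilp and Cilp2, against 0.560% of all genes (74 genes). Nothing is read from these counts, since the same values chose the members. Of the 2 members outside that limit, Thbs4 was near it, at 2.98 and 1.89, and Scx was further off, at 1.37 and 2.08. The nearest member inside it was Cilp, at 3.59 and 2.95. The median member ratio was 3.998 for control 1 and 4.80 for Yap-shRNA 3, where the median over all genes was 1.01 and 0.996. Ranked by the lower of its 2 ratios, Cilp2 was number 3 and Comp number 4 of the 74 genes.

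**Figure D2:**
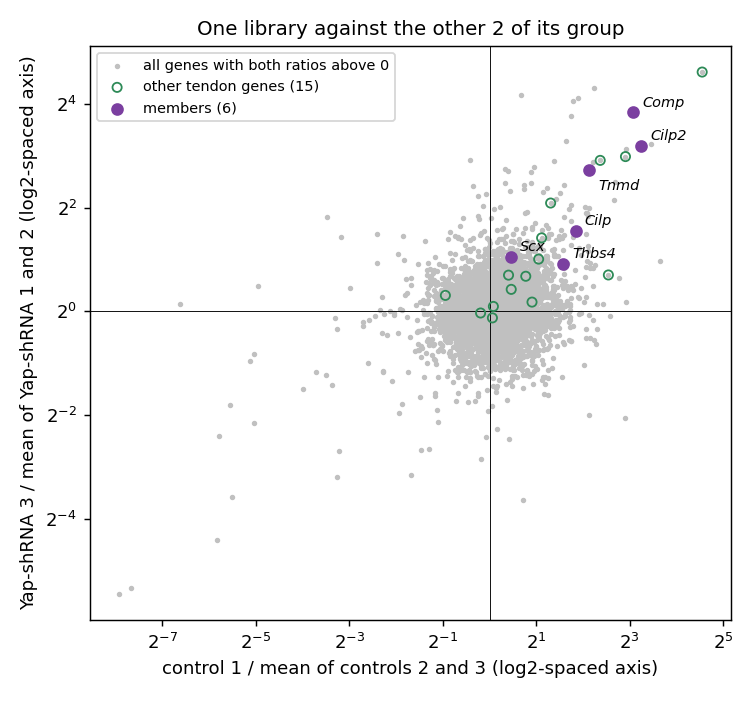
Ratio of control 1 to the mean of controls 2 and 3 (horizontal) and of Yap-shRNA 3 to the mean of Yap-shRNA 1 and 2 (vertical) in TMM-scaled CPM, on log2-spaced axes, for all genes with both ratios above 0 (grey), the 15 other tendon genes (green rings) and the 6 members (purple). All 6 members lie in the upper right, from Scx at 1.37 and 2.08 to Comp at 8.42 and 14.3 and Cilp2 at 9.51 and 9.15, while the median gene is near 1 on both axes.

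Per length of merged exons, as RPKM (CPM per kilobase of exon), the order of the members also differed between the libraries. In controls 2 and 3 and Yap-shRNA 1 and 2 it was Thbs4, Cilp, Tnmd, Scx, Comp and Cilp2 from high to low. In control 1 and Yap-shRNA 3 the first 3 kept their places and Comp and Cilp2 were above Scx. The level of Comp was 2.68 times that of Scx in control 1 and 2.20 times in Yap-shRNA 3, and 0.247 to 0.494 times in the other 4 libraries. Across all 6 libraries Thbs4 had 26.3 to 91.5 RPKM and Cilp 3.20 to 14.6, and these ranges did not overlap. Tnmd, at 1.76 to 12.4 RPKM, overlapped with Cilp and with Scx, at 1.34 to 3.02. Comp, at 0.388 to 6.64 RPKM, and Cilp2, at 0.303 to 5.03, overlapped with each other and with Scx, Tnmd and Cilp.

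Summed over the 6 members, the level was 423.5 CPM in control 1, 145.8 in control 2 and 113.3 in control 3, and 159.0, 128.2 and 333.7 CPM in Yap-shRNA 1, 2 and 3. Thbs4 made up most of each sum. Without it the sums were 122.6, 30.5 and 26.9 CPM in the controls and 32.9, 21.6 and 113.6 in the Yap-shRNA muscles, and the same 2 libraries stood out.

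Yap-shRNA muscles were compared with control muscles to ask whether the genes differed with knockdown of Yap. No member passed the test: 0 of 6 had an adjusted p under 0.05, against 0% of all genes, and 0 of 6 had an unadjusted p under 0.05, against 1.75%. The groups overlapped for all 6, whereas groups did not overlap for 5.27% of all genes. This overlap followed from the choice of members, since for each the highest library of either group stood above all other libraries. That choice also favoured a wide spread within each group. These counts therefore cannot decide whether the members differed with knockdown. The log2 fold change was 0.02 (SE 0.32) for Scx, -0.03 (SE 0.79) for Tnmd, -0.06 (SE 1.06) for Comp, -0.15 (SE 0.43) for Thbs4, -0.07 (SE 0.58) for Cilp and -0.44 (SE 1.02) for Cilp2, and the quasi-likelihood test of edgeR gave an adjusted p of 1.00 for each. The median over the members was -0.06 and over all genes -0.003. The errors were wide: the median SE was 0.68 over the members and 0.16 over all genes, and 0.507% of genes had a larger SE than Comp. A difference between the groups of 2-fold in Comp or Cilp2 was therefore no larger than 1 SE.

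The 2 libraries pulled the fold changes in opposite directions. Without control 1, the log2 fold change was 1.07 for Tnmd, 1.74 for Comp, 0.58 for Thbs4, 0.84 for Cilp, 1.50 for Cilp2 and 0.19 for Scx. Without Yap-shRNA 3 it was -1.56 for Tnmd, -2.51 for Comp, -0.53 for Thbs4, -0.79 for Cilp, -2.34 for Cilp2 and -0.42 for Scx. Without both libraries the values lay between, at -0.46 (SE 0.28) for Tnmd, -0.70 (SE 0.35) for Comp, 0.21 (SE 0.16) for Thbs4, -0.25 (SE 0.27) for Scx, 0.11 (SE 0.24) for Cilp and -0.39 (SE 0.42) for Cilp2. No member passed the threshold in any of these fits, in which the lowest adjusted p of a member was 0.700 (edgeR).

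**Figure D3:**
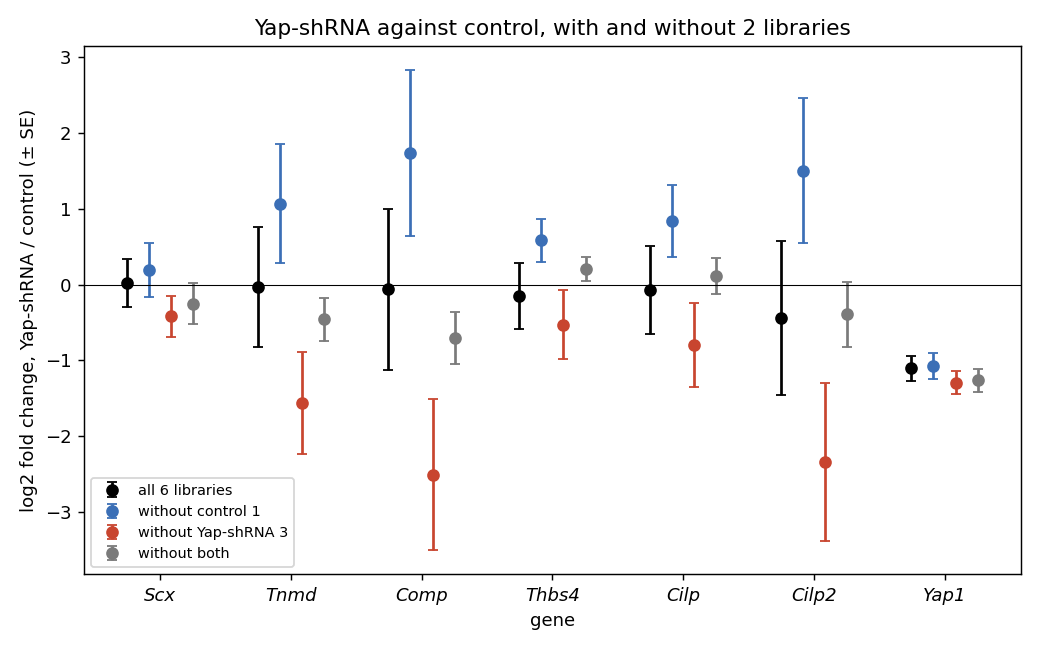
Log2 fold change of Yap-shRNA over control (points) with SE (bars) from edgeR for each member and Yap1, with all 6 libraries, without control 1, without Yap-shRNA 3 and without both. For all 6 members the sign is positive without control 1 and negative without Yap-shRNA 3, while Yap1 is below 0 in all 4 fits.

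Other tendon genes followed the same libraries. Of a list of 15, all in the table, control 1 and Yap-shRNA 3 were the 2 highest for 10 (11.3% of all genes) and both at least 2-fold above the rest of their group for 6 (0.560%). The list summed to 611.8, 251.2 and 246.7 CPM in the controls and 256.7, 235.3 and 582.1 CPM in the Yap-shRNA muscles. Fmod, the collagen-binding proteoglycan fibromodulin, was its most abundant gene, with 3848, 588 and 373 counts in the controls and 429, 409 and 3344 in the Yap-shRNA muscles. Ogn, the proteoglycan osteoglycin, was at 1.33 times the other controls in control 1 and at 1.62 times the other Yap-shRNA muscles in Yap-shRNA 3. The test between the groups called 0 of the 15 in either direction (0% of all genes).

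Genes that define cartilage mostly had no row. The table holds no gene with fewer than 60 counts over the 6 libraries, so a gene without a row may have had a low count. Of a list of 19 cartilage symbols, 7 were in the table, and Col2a1, which encodes type II collagen, was among the 12 that had no row there, with Col9a2, Col9a3, Col10a1, Matn1, Matn3, Hapln1, Snorc, Ucma, Ihh, and Cnmd and Lect1, the current and the older symbol of the same gene. Of the 7, control 1 and Yap-shRNA 3 were the 2 highest for 5 (11.3% of all genes). Col11a2, a chain of type XI collagen, had 154, 55 and 41 counts in the controls and 29, 41 and 123 in the Yap-shRNA muscles. Sox6, a transcription factor that muscle fibres also use, made up most of the summed level and had 1273 to 1559 counts, and the sums of the list were 119.2 to 150.8 CPM. The same 2 libraries chose the members, and genes of other lists below were also highest there. The label of tendon was therefore not tested, and most defining genes of cartilage had no row by which to check that label.

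In a list of other thrombospondins and a matrilin, control 1 and Yap-shRNA 3 were the 2 highest libraries for 3 of 4 genes. Over all genes the share was 11.3%. The 3 were Thbs1, Thbs2 and Thbs3, and the matrilin gene Matn2 was at 1.28 and 1.12 times the rest of the group. Thbs2 had 261, 88 and 63 counts in the controls and 100, 121 and 435 in the Yap-shRNA muscles. Of 4 genes of muscle fibres at the junction with tendon, 3 had a row (Slc24a2 had none). Control 1 and Yap-shRNA 3 were highest for 2 of the 3 (11.3% of all genes). Col22a1, the collagen of that junction, had 368, 90 and 138 counts in the controls and 139, 107 and 345 in the Yap-shRNA muscles. No gene of either list was called between the groups (0% of all genes).

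Markers of other cells moved with these libraries to different degrees. Of 10 muscle fibroblast genes, 6 had control 1 and Yap-shRNA 3 as the 2 highest (11.3% of all genes). The list summed to 2969, 2124 and 1766 CPM in the controls and 2349, 2084 and 3607 CPM in the Yap-shRNA muscles. Of these 10, 0 passed the adjusted test between the groups (0% of all genes). At an unadjusted p under 0.05 by edgeR, 3 were higher in Yap-shRNA muscles, where 1.75% of all genes passed in either direction. The 5 adipocyte genes summed to 45.2 CPM in Yap-shRNA 3, 12.9 CPM in control 1 and 6.44 to 8.37 CPM in the others. Of the bone genes, Postn and Spp1 had a row and Bglap, Bglap2, Ibsp, Sp7 and Dmp1 had none, and Postn, a matrix protein of periosteum and tendon alike, made up most of a sum of 46.9 CPM in control 1, 24.6 in Yap-shRNA 3 and 10.4 to 14.6 in the others. Of 4 Schwann cell genes, 3 had these 2 libraries lowest (10.9% of all genes). Their sums were 86.5 and 107.4 CPM in control 1 and Yap-shRNA 3 against 114.5 to 147.6 CPM.

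The 7 liver genes, which encode plasma proteins made by hepatocytes, ran the other way, and for 6 of them control 1 and Yap-shRNA 3 were the 2 lowest libraries (10.9% of all genes). Their sums were 0.856 CPM in control 1 and 0.399 CPM in Yap-shRNA 3, against 49.5 and 420.4 CPM in controls 2 and 3 and 13.3 and 37.1 CPM in Yap-shRNA 1 and 2. Alb had 7, 301 and 2909 counts in the controls and 93, 262 and 4 in the Yap-shRNA muscles. Between the groups 0 of the 7 passed the adjusted test (0% of all genes). At an unadjusted p under 0.05 by edgeR, 4 were lower in Yap-shRNA muscles, where 1.75% of all genes passed in either direction. Other lists were mixed. Control 1 and Yap-shRNA 3 were the 2 highest for 0 of 4 endothelial and 0 of 6 muscle fibre genes (11.3% of all genes). The same 2 were highest for 3 of 5 macrophage genes, which summed to 80.1 and 80.5 CPM against 33.9 to 70.1 CPM. The part of these cells or transcripts in the levels of the members was not tested.

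**Figure D4:**
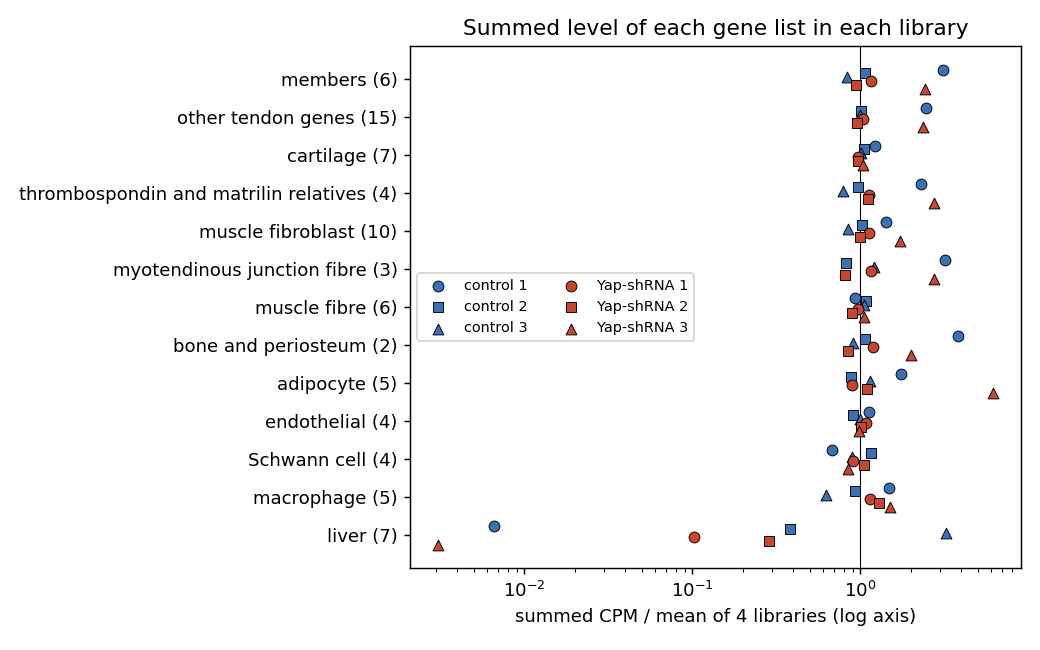
Summed TMM-scaled CPM of each gene list in each library, divided by the mean of controls 2 and 3 and Yap-shRNA 1 and 2, on a log axis, with the number of genes in the table in brackets. Control 1 and Yap-shRNA 3 lie to the right for the members, the other tendon genes and the junction genes. To different degrees they also lie to the right for thrombospondin and matrilin relatives and for bone, adipocyte, muscle fibroblast and macrophage genes. Both are near 1 for muscle fibre and endothelial genes, and far to the left for liver genes.

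Among 9280 genes with a mean of at least 5 CPM, the 10 whose log2 CPM followed the mean of the members most closely were Ctsk, Fmod, Chad, Angptl7, Kdelc2, Npr3, Cyp20a1, Cald1, Aspn and Bmp1, with Pearson's r of 0.980 to 0.998 over the 6 libraries. The libraries fell into 2 high and 4 low values, so such an r says little more than that, and 46 genes reached 0.95. The size of the gap varied widely at the same r. Chad, the tendon and cartilage protein chondroadherin, had 513, 29 and 12 counts in the controls and 19, 8 and 339 in the Yap-shRNA muscles, whereas Ctsk, the collagen-cleaving protease cathepsin K, had 191, 105 and 94 against 97, 95 and 179. Each member was compared with the mean of the others in the same way, giving 0.992 for Tnmd, 0.989 for Comp and for Cilp2, 0.968 for Cilp, 0.936 for Thbs4 and 0.846 for Scx, which had the fewest counts. Fmod and Aspn were also on the list of other tendon genes.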

How the data were processed

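Polyadenylated RNA of 6 TA muscles, 3 control and 3 Yap-shRNA, was sequenced by the authors from TruSeq libraries, and they deposited raw read counts per gene. The submitters' processing notes name GRCm38 and bcl2fastq 2.20.0.422; the aligner, counter, annotation and strand setting are not given in the sources used here. No gene of the table had fewer than 60 counts over the 6 libraries, and the filter used here (a mean of at least 10 counts per library) removed none. All columns were matched to a sample by name.

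Over 13226 genes, edgeR 4.0.16 in R 4.3.3 fitted group alone to TMM-scaled counts by its quasi-likelihood method, and p-values were adjusted by Benjamini-Hochberg and called under 0.05. The SE of a log2 fold change was its size over the square root of F, and the code was tested on simulated data. Log2 CPM for likeness used a prior count of 2. Gene positions and exon lengths came from GENCODE on GRCm38. Intervals of ratios are exact conditional intervals at 95%. Within a group, chi-square over its degrees of freedom was 7.62 to 21.4 for each pair of libraries, where counting error alone would give about 1.

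The members and gene lists were chosen with earlier results of these data known. Named from each list were at most 3 genes with the highest mean CPM, defining markers without a row and the 10 genes most like the members. For one gene under this rule, values are not reported here. The other muscle fibre genes and the list members named beside a count were given to identify the list. Alternatives were DESeq2 1.42.0, the likelihood ratio test, limma-voom (limma 3.58.1), other scalings and filters, a threshold of 0.01, a replicate block and fits without single libraries.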

Additional observations from a re-analysis of the deposited data

How the results depend on the processing

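No member was called under any alternative. Of 90 log2 fold changes of members under alternatives, 70 kept their direction and 20 changed sign, 15 of them when 1 library was left out. The 70 include the fit without a filter, which equals the main fit because the filter removed no gene, so its values for the 6 members could not change. Leaving out 1 library gave -1.56 to 1.07 for Tnmd, -2.51 to 1.74 for Comp, -0.53 to 0.58 for Thbs4, -0.79 to 0.84 for Cilp, -2.34 to 1.50 for Cilp2 and -0.42 to 0.24 for Scx. The lowest value was without Yap-shRNA 3 for all 6 members and the highest without control 1, except for Scx, where it was without Yap-shRNA 1. Without both libraries the sign changed for Thbs4 (0.21), Scx (-0.25) and Cilp (0.11). For Scx it also changed with limma-voom (-0.049) and with the replicate block (-0.025), which changed no call. DESeq2 gave no adjusted p for Comp.

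Over all genes, 5 were called by DESeq2, 5 by the likelihood ratio test, 3 without control 1 and Yap-shRNA 3 together (Rrad, Mir155hg and Ankrd1, named after their values were seen), and 0 to 1 with 1 library left out, the 1 being Mir155hg without Yap-shRNA 3. Yap1 was called by DESeq2 (adjusted p = 5.85e-07) and by the likelihood ratio test (adjusted p = 2.22e-06). Of 36 levels and ratios under other scalings, 1 moved by more than its interval, the ratio of control 1 to the other controls for Thbs4 (3.22 per library total). With Spearman's rho, 3 of the 10 genes most like the members were shared with the 10 given. Genes tied at the same rho were ordered by symbol, so ties enter that count. With a floor of 1 CPM on the mean level, 7 were shared. Deviations of same-numbered libraries correlated at -0.07, 0.20 and -0.32. Differences between single libraries, such as those above, enter these values, so they cannot decide whether same-numbered samples share an animal. The highest correlation of a control with a Yap-shRNA library was that of control 1 with Yap-shRNA 3, at 0.38, and whether these muscles came from the same animal is not given in the labels. Counts of 15 to 27 limit what can be said of Comp in the 4 low libraries.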

Other observations

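Of the 74 genes at least 2-fold higher in both control 1 and Yap-shRNA 3, 4 were members, 15 were on another gene list and 55 on none. The 3 genes described here are among the 55 and were chosen after their values were seen, beside others of the 55 that encode matrix proteins, such as Col8a2, Col1a2 and Lox. Myh3, the embryonic myosin heavy chain, had 175, 34 and 37 counts in the controls and 41, 15 and 212 in the Yap-shRNA muscles. Myh8, the neonatal myosin heavy chain, had 256, 94 and 78 counts in the controls and 85, 33 and 166 in the Yap-shRNA muscles. Tmem8c, which encodes the muscle fusion protein myomaker, had 82, 9 and 15 counts against 10, 3 and 38.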
